A study of Mus musculus with 12 samples.

Results

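The glutathione peroxidase family of the mouse has 8 genes, Gpx1 to Gpx8, and all 8 were found by symbol among the 39179 genes of the deposited table. They were described in prostate RNA from mice given the herbicide paraquat, which makes cells produce superoxide and is used to provoke oxidative stress. There were 6 libraries from mice null for the gene under study and 6 from wild-type mice. All mice were 4 months old, had received paraquat and were of a hybrid background of 129/SvImJ and C57Bl/6J. The sources used here do not say how the null allele was made, and no library from untreated mice was analysed here, so each comparison is between genotypes under paraquat. The table gives normalized log2 values, and each difference is null minus wild type on that scale.

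Glutathione peroxidases reduce hydrogen peroxide and organic hydroperoxides to water and alcohols, with glutathione as the usual electron donor. Gpx1 is the widely expressed intracellular enzyme, Gpx2 is best known from the epithelium of the gut, and Gpx3 is secreted and is the form found in plasma. Gpx4 reduces phospholipid hydroperoxides within membranes and is known for holding back ferroptosis, an iron-dependent form of cell death driven by lipid peroxidation. Gpx5 is secreted in the epididymis, Gpx6 is known from olfactory tissue, and Gpx7 and Gpx8 reside in the endoplasmic reticulum (ER), where peroxide use is linked to disulfide formation.

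The members differ in the residue of the active site, selenocysteine or cysteine, which its codon shows directly. The 27 bases of coding sequence around that codon are given 5′ to 3′ from the GENCODE transcripts of GRCm38, with the active-site codon in capitals.
Gpx1: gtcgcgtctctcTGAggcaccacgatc
Gpx2: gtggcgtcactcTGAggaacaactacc
Gpx3: gtagccagctacTGAggtctgacagac
Gpx4: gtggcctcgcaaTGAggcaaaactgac
Gpx5: gtggctacctatTGCggtctgacaatc
Gpx6: gtggcatccttcTGTggcctgacagct
Gpx7: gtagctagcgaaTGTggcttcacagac
Gpx8: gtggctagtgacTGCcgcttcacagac
In Gpx1, Gpx2, Gpx3 and Gpx4 the codon is TGA, which is read here as selenocysteine in place of a stop. In Gpx5, Gpx6, Gpx7 and Gpx8 it is TGC or TGT, a cysteine codon. Coding sequences were 57.6% identical for the most distant pair, Gpx4 and Gpx6, and 72.1% for the closest, Gpx5 and Gpx6. Gpx3 shared 71.0% with Gpx5 and 70.7% with Gpx6, while Gpx1 and Gpx2 shared 69.0% and the ER pair Gpx7 and Gpx8 shared 63.7%.

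Depth recovered from the deposited values was 14.8 to 21.7 M reads per library. Within each genotype, libraries 1 to 3 resembled each other closely, as did libraries 4 to 6. Libraries of such a set of 3 differed by a median of 0.0776 to 0.141, and those of different sets by 0.274 to 0.352, with genotype held the same. Nothing in the labels ties libraries to separate animals, and p-values measure only the spread between these libraries, which may be technical. Each difference was therefore tested with limma by library (n = 6 libraries per genotype) and again by set (n = 2 set means per genotype), and "rose", "fell" and "changed" are used of a gene only where both tests passed an adjusted p of 0.05. Tissue markers differed between libraries too. The summed linear level of 14 prostate secretory markers was 235000 to 248000 in null libraries and 1880000 to 2450000 in wild-type libraries. Most seminal vesicle markers were far higher in both null sets: 9 of 11 had both null set means above both wild-type set means. The sum of 10 of them averaged 2780000 in null libraries 1 to 3 and 118000 in null libraries 4 to 6, against 223 and 79 in the wild-type sets. Svs2 carried most of the sum in null libraries 1 to 3, with set means of 21.03 there and 11.37 in null libraries 4 to 6. Of these 10 markers, 5 were higher in null libraries 1 to 3 and 5 in null libraries 4 to 6. The remaining marker, 9530002B09Rik, was lower in null libraries (15.33 and 15.25 on the log2 scale, against 17.54 and 17.67), and with it the sums were 2820000 and 157000, against 191000 and 209000. In bulk tissue, fewer cells of a type and less RNA per cell cannot be told apart.

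The family split by member. Gpx1 was lower in null prostates, Gpx2 and Gpx3 were higher, Gpx4 was slightly lower, and Gpx7 and Gpx8 had overlapping values. Of the 8 members, 6 passed the filter on low values (at least 4 on the log2 scale in at least 6 libraries), and Gpx5 and Gpx6 did not. By library, 4 of these 6 passed an adjusted p of 0.05, 2 higher and 2 lower, against 65.9% of all 16197 tested genes (34.1% higher and 31.8% lower in null). By set 1 of 6 passed, Gpx1, against 4.09% of tested genes (2.15% higher and 1.93% lower). The 6 null and 6 wild-type libraries did not overlap for 4 of the 6 members, against 44.2% of tested genes (21.5% higher and 22.7% lower in null). The median difference of the 6 members was -0.07, beside 0.05 over all tested genes, and 0.24 beside 0.37 with libraries scaled to equal totals. By library the members' share was thus near that of genes in general.

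**Figure D1:**
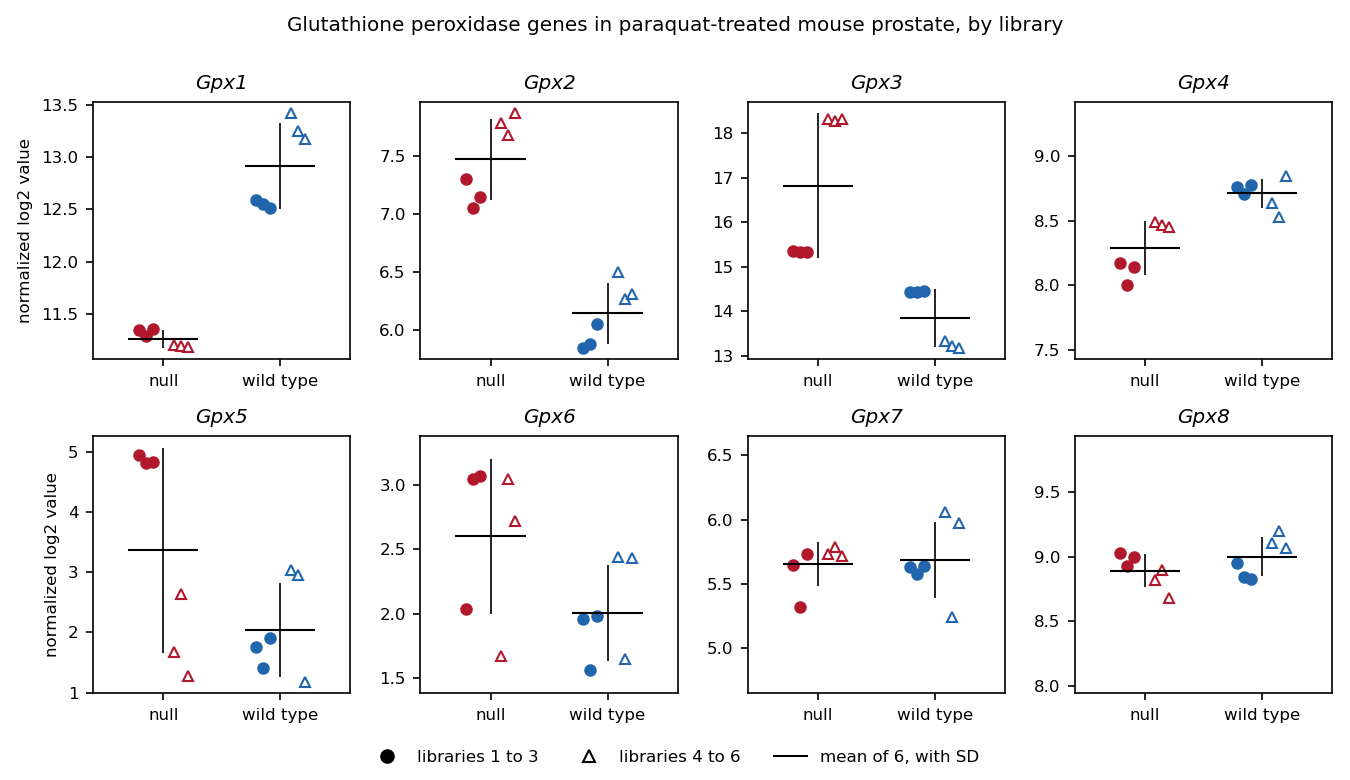
Normalized log2 value (y axis, a separate range in each panel) of the 8 glutathione peroxidase genes in null and wild-type libraries; filled circles are libraries 1 to 3 of a genotype, open triangles libraries 4 to 6, and bars the mean of 6 with its SD. Gpx1, Gpx2, Gpx3 and Gpx4 do not overlap between genotypes, Gpx3 and Gpx5 differ most between the null sets, and Gpx5 is above 4 in null libraries 1 to 3 alone.

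Gpx1 fell in null prostates. Its log2 values ran from 11.18 to 11.36 with a median of 11.24 in null libraries, against 12.51 to 13.42 with a median of 12.88 in wild-type libraries. The lowest wild-type library was above every null library. Means were 11.26 ± 0.08 in null and 12.91 ± 0.41 in wild-type libraries (SD, n = 6 each). The difference of -1.65 (SE 0.16 by library, 0.29 by set) is 3.14-fold lower in null. Limma gave an adjusted p of 1.65e-06 by library and 0.0365 by set, and 4.95% of tested genes differed by at least as much.

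The 2 null sets were close for Gpx1, and the wild-type sets were not. Gpx1 averaged 11.33 and 11.19 in null libraries 1 to 3 and 4 to 6, against 12.55 and 13.28 in the wild-type sets. The 4 pairings of a null with a wild-type set ran from -2.09 to -1.21, so all had the same sign. The prostate secretory markers, lower in sum in null libraries, had 3 of 14 called higher and 10 lower by library. Of all tested genes, 34.1% were called higher and 31.8% lower. The part of these markers in the Gpx1 values was not tested. Gpx1 made up 0.0143% to 0.0154% of the library total on the linear scale in null libraries and 0.0289% to 0.0502% in wild-type libraries. The gene lies at chr9:108338903-108340343 on the plus strand, with its TGA codon in the coding sequence at chr9:108339451-108339453.

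Gpx2 was higher in null prostates, a call that held by library and not by set. Its log2 values were 7.05 to 7.87 with a median of 7.49 in null libraries and 5.85 to 6.50 with a median of 6.16 in wild-type libraries. Every null library was above every wild-type library, and libraries 4 to 6 were above libraries 1 to 3 in both genotypes. Means were 7.47 ± 0.35 in null and 6.14 ± 0.26 in wild-type libraries (SD, n = 6 each). The difference was 1.33 (SE 0.17 by library, 0.35 by set), or 2.51-fold, with a limma adjusted p of 2.59e-05 by library and 0.0819 by set. The pairings of sets ran from 0.80 to 1.85.

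Gpx2 lies at chr12:76792333-76795554 on the minus strand, with its TGA codon at chr12:76795256-76795258. It overlaps Fntb, a farnesyltransferase subunit gene on the other strand, but shares 0 exonic bases with it. The processed pseudogene Gpx2-ps1 (chr7:100264675-100265245) matches the Gpx2 transcript at 98.2% of 571 bases, so reads of the pair could be divided by the counting. Gpx2-ps1 itself was at 3.09 to 4.44 in null and 3.24 to 3.83 in wild-type libraries, with overlapping values.

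Of the 6 tested members, Gpx3 had the largest difference and the largest spread between libraries of a genotype. Its log2 values were 15.33 to 15.35 in null libraries 1 to 3 and reached 18.27 to 18.33 in libraries 4 to 6 of that genotype. In wild-type libraries 1 to 3 they were 14.43 to 14.45, and in wild-type libraries 4 to 6 they were 13.19 to 13.33. All null libraries were thus above all wild-type libraries, and the null sets lay 2.97 apart while the SD within a set was at most 0.07. The wild-type sets differed by -1.19, libraries 4 to 6 being the lower.

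The Gpx3 means were 16.82 ± 1.63 in null and 13.84 ± 0.65 in wild type (SD, n = 6 each). The difference of 2.98 (SE 0.63 by library, 1.01 by set) is 7.88-fold. Limma gave an adjusted p of 0.00115 by library and 0.12 by set, and 1.02% of tested genes differed by at least as much. The size rests on the set: the 4 pairings of sets ran from 0.90 to 5.06. The difference was 1.49 without null libraries 4 to 6 and 4.46 without null libraries 1 to 3.

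Gpx3 took a visible part of the library total. It made up 0.24% to 0.245% of the summed linear values in the first null set and 1.95% to 2.02% in the second, against 0.11% to 0.111% and 0.0444% to 0.0472% in the wild-type sets. The gene lies at chr11:54902453-54910377 on the plus strand, with its TGA codon at chr11:54907256-54907258. Several seminal vesicle genes had the same order of sets as Gpx3, highest in null libraries 4 to 6 and lowest in wild-type libraries 4 to 6. These were 5 of 11 markers, Svs3a, Svs3b, Svs4, Spinkl and Sva. The other 6 were higher in null libraries 1 to 3 than in null libraries 4 to 6. How many of all tested genes had the order of Gpx3 was not counted. Svs4, a secreted seminal vesicle protein, averaged 14.58 and 16.43 in the null sets, against 6.32 and 3.89 in the wild-type sets. Svs2, another, had a different order, at 21.03 and 11.37 in the null sets, against 4.71 and 3.35. Other marker lists also stood apart in null libraries 4 to 6, in both directions. Summed leukocyte markers averaged 12200 there and 7650 in null libraries 1 to 3, against 6060 and 6850 in the wild-type sets, for 12 markers of which 6 were called higher by library and none lower. Summed gut-like and urothelial markers averaged 20300 there and 9720 in null libraries 1 to 3, against 8570 and 8920, with 3 of 10 below 4 in every library and, of 6 tested, 3 called higher and 1 lower by library. That sum was nearly all Upk1a and Upk1b, 2 urothelial plaque genes, and without them it was 560 there and 583 in null libraries 1 to 3, against 424 and 423 in the wild-type sets. Lgr5, a gut stem cell marker, was the gene called lower. Summed adipocyte markers, a cell type known to express Gpx3, averaged 3140 and 3540 in the null sets and 1490 and 2200 in the wild-type sets. Of these 9 markers, 8 were called higher and 1 lower by library. By library, 34.1% of all tested genes were called higher and 31.8% lower. Summed basal epithelial markers averaged 8840 in null libraries 4 to 6 and 7190 in null libraries 1 to 3, against 4080 and 5020 in the wild-type sets. Stromal and endothelial sums were lower in null libraries 4 to 6 than 1 to 3 (91600 against 125000, and 2010 against 3000). The Gpx3 order of sets was that of 0 of 9 adipocyte, 2 of 12 leukocyte, 2 of 10 gut-like and urothelial and 2 of 6 basal markers. It was also that of 2 of 13 stromal, 0 of 7 endothelial, 0 of 14 prostate secretory, 1 of 5 erythrocyte and 3 of 31 epididymis markers. The part of these tissues and cells in the Gpx3 values was not tested.

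**Figure D2:**
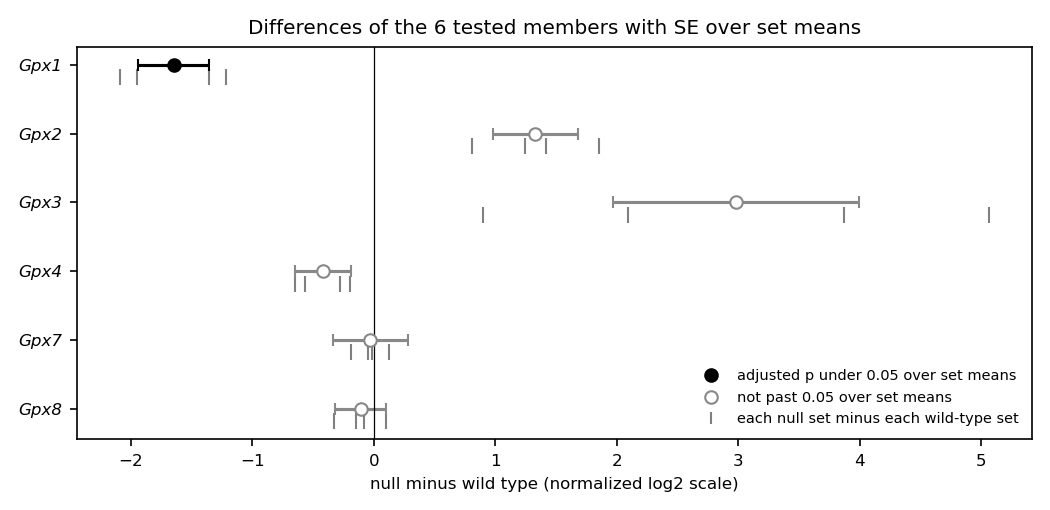
Null minus wild type on the normalized log2 scale (x axis) for the 6 members that passed the filter, with bars of 1 SE from the limma fit by set and ticks for each null set minus each wild-type set. Gpx1 at -1.65 is the filled point, past an adjusted p of 0.05 by set, and the ticks of Gpx3 run from 0.90 to 5.06.

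Gpx4 was slightly lower in null prostates, a call that held by library and not by set. Its log2 values were 8.00 to 8.49 with a median of 8.31 in null libraries and 8.53 to 8.85 with a median of 8.73 in wild-type libraries. The groups did not overlap, but the gap between the highest null and the lowest wild-type library was small beside the spread within null libraries. Means were 8.29 ± 0.21 in null and 8.71 ± 0.11 in wild type (SD, n = 6 each). The difference of -0.42 (SE 0.10 by library, 0.23 by set) is 1.34-fold lower, and 54.8% of tested genes differed by at least as much. Limma gave an adjusted p of 0.00214 by library and 0.251 by set. Scaling libraries to equal totals left -0.11 (adjusted p 0.408) and removing a trend over transcript length left -0.05 (adjusted p 0.678), and without null libraries 1 to 3 the difference was -0.24 (adjusted p 0.0278).

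Gpx4 lies at chr10:80047166-80056439 on the plus strand, with its TGA codon at chr10:80054737-80054739. The processed pseudogene Gpx4-ps2 matches its transcript at 99.5% of 747 bases and has no value here, so how its reads were counted is not known and the level of Gpx4 is uncertain.

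Gpx5 was near the low end of the scale except in null libraries 1 to 3. Its log2 values there were 4.82 to 4.95, and in null libraries 4 to 6 they were 1.27 to 2.64. In wild-type libraries they were 1.18 to 3.03 with a median of 1.82. The genotypes overlapped, since null libraries 4 to 6 lay within the wild-type range. Gpx5 reached a value of 4 in 3 of the 12 libraries and so did not pass the filter. With no filter its difference was 1.33 (limma adjusted p 0.152 by library and 0.442 by set).

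Crisp1, a secretory protein of the epididymis, where Gpx5 is also known to be secreted, stood high in the same 3 libraries. The summed level of the 31 epididymis markers averaged 20700 in null libraries 1 to 3 and 1260 in null libraries 4 to 6, against 584 and 502 in the wild-type sets. Crisp1 carried most of that sum, with a set mean of 14.23 in null libraries 1 to 3 and 3.61 in null libraries 4 to 6, against a mean of 2.09 in wild-type libraries. Without it the sums were 1490 and 1250 in the null sets, against 580 and 497 in the wild-type sets. Of the 31 markers, 19 were below 4 in every library, among them Lcn5, Lcn8, Defb12 and Spag11b. By library, 34.1% of all tested genes were called higher and 31.8% lower. Of the 6 tested markers, 5 were called higher and none lower. Sva, Defb15, Defb48 and Wfdc10 averaged 2.36, 3.05, 3.55 and 1.97 in wild-type libraries, below the 4 of the filter. The 6 null libraries alone can meet that filter, so these calls are not comparable with the shares over all tested genes. Of the 5 called, Adam7, Defb15 and Wfdc10 were higher in null libraries 1 to 3 than 4 to 6, as Gpx5 was. Sva, which is also in the seminal vesicle list, and Defb48 were higher in null libraries 4 to 6. The part of epididymal RNA in the Gpx5 values was not tested. Gpx5 and Gpx6 neighbour each other, at chr13:21286429-21292731 on the minus strand and chr13:21312125-21319624 on the plus strand, with their cysteine codons at chr13:21291336-21291338 and chr13:21313777-21313779.

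Gpx6 stayed below 4 in every library. It was 1.67 to 3.07 with a median of 2.88 in null libraries and 1.56 to 2.44 with a median of 1.97 in wild-type libraries, with overlapping values. Its difference with no filter was 0.60 (limma adjusted p 0.161 by library and 0.37 by set).

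The ER members had values that overlapped between genotypes. Gpx8 was 8.68 to 9.03 with a median of 8.91 in null libraries and 8.83 to 9.20 with a median of 9.01 in wild-type libraries. Its difference was -0.11 (SE 0.08 by library, 0.21 by set; limma adjusted p 0.257 and 0.735). Gpx7 was 5.32 to 5.79 with a median of 5.72 in null libraries and 5.24 to 6.06 with a median of 5.63 in wild-type libraries. Its difference was -0.03 (SE 0.15 by library, 0.31 by set; limma adjusted p 0.871 and 0.954). Neither sign was stable: with libraries scaled to equal totals Gpx8 was at 0.20 (adjusted p 0.0204) and Gpx7 at 0.28 (adjusted p 0.108). With the length trend removed Gpx8 was at 0.26 (adjusted p 0.0342). As deposited but without wild-type libraries 1 to 3, Gpx8 was at -0.24 (adjusted p 0.0289).

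Gpx7 lies at chr4:108400390-108406961 and Gpx8 at chr13:113042753-113046410, both on the minus strand, with their cysteine codons at chr4:108403430-108403432 and chr13:113045661-113045663. Gpx8 overlaps Cdc20b on the other strand but shares 0 exonic bases with it, and Cdc20b averaged 2.20 in null and 1.93 in wild-type libraries.

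Levels of different members were compared per kilobase of the longest annotated transcript, on the log2 scale. In null libraries the order was Gpx3 at 16.15 ± 1.63, Gpx1 at 11.16 ± 0.08, Gpx8 at 8.83 ± 0.13, Gpx4 at 8.29 ± 0.21, Gpx2 at 5.81 ± 0.35, Gpx7 at 5.29 ± 0.17, Gpx5 at 2.62 ± 1.71 and Gpx6 at 2.18 ± 0.60 (SD, n = 6). In wild-type libraries it was Gpx3 at 13.17 ± 0.65, Gpx1 at 12.81 ± 0.41, Gpx8 at 8.94 ± 0.15, Gpx4 at 8.72 ± 0.11, Gpx7 at 5.32 ± 0.30, Gpx2 at 4.48 ± 0.26, Gpx6 at 1.58 ± 0.37 and Gpx5 at 1.29 ± 0.79 (SD, n = 6). The ranges of neighbours overlapped in null libraries for Gpx2 with Gpx7 and for Gpx5 with Gpx6. In wild-type libraries they overlapped for Gpx3 with Gpx1, for Gpx8 with Gpx4 and for Gpx6 with Gpx5. The longest Gpx2 transcript retains an intron (3165 bases). With its longest coding transcript (1067 bases) Gpx2 was at 7.38 ± 0.35 in null and 6.05 ± 0.26 in wild-type libraries, above Gpx7 in both.

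On the linear scale per kilobase, the summed family level was almost wholly Gpx3 in null prostates, while Gpx3 and Gpx1 shared it in wild type. Gpx3 made up 93.7% ± 5.32 of it in null and 52.7% ± 16.9 in wild-type libraries (SD, n = 6 each). By set the Gpx3 share was 88.8% and 98.5% in null libraries 1 to 3 and 4 to 6, against 68.1% and 37.3% in the wild-type sets. Gpx1 made up 4.64% ± 3.93 in null and 41.9% ± 16 in wild-type libraries, and in wild-type libraries 4 to 6 its 56.5% was above the share of Gpx3. Gpx8 made up 0.934% in null and 2.74% in wild-type libraries, and Gpx4 0.559% and 2.32%. These are shares of 1 sum, so a higher Gpx3 level lowers every other share. The sum itself was 16.25 ± 1.54 in null and 14.16 ± 0.18 in wild-type libraries on the log2 scale per kilobase, and no null library overlapped the wild-type range of 13.92 to 14.33.

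**Figure D3:**
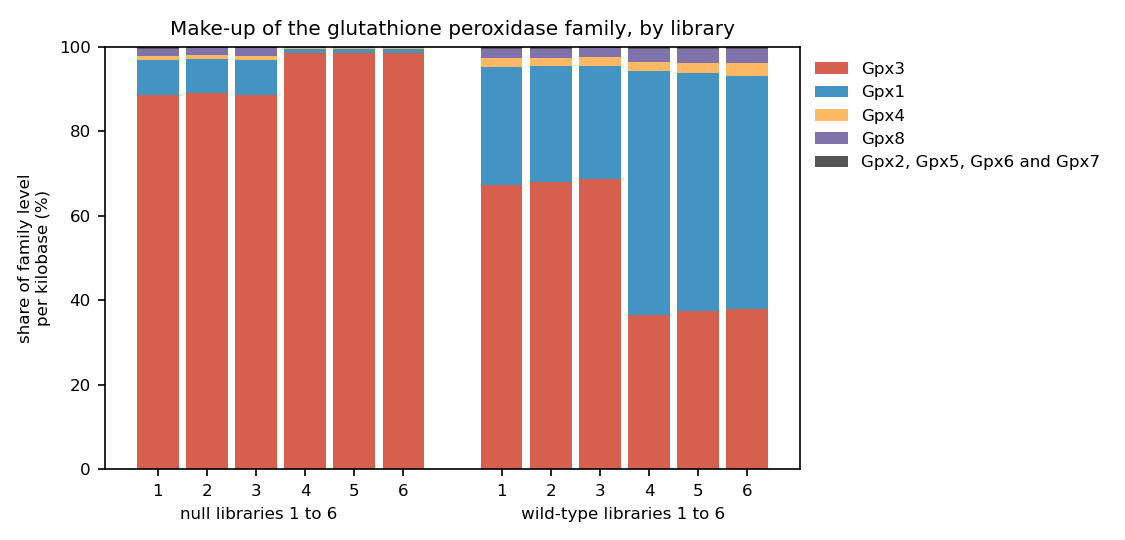
Share of the summed family level per kilobase (y axis, %) held by each member in each library, null libraries 1 to 6 left of wild-type libraries 1 to 6. Gpx3 holds 88.8% and 98.5% in the null sets, against 68.1% and 37.3% in the wild-type sets, where Gpx1 holds most of the rest.

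The genes whose values lay nearest to each member across all 12 libraries were found by the root mean square (RMS) difference after each gene was centred at its own mean, as a description. Nearest to Gpx1 was Selenoh, a nuclear selenoprotein, at an RMS of 0.0972, followed by Selenow, a small selenoprotein with a thioredoxin-like fold, at 0.117, and Cntnap2, a neuronal adhesion protein, at 0.126. Selenoh fell, with 8.26 in null and 9.80 in wild-type libraries, a difference of -1.54 (limma adjusted p 2.15e-06 by library, 0.0381 by set). Selenow averaged 10.19 in null and 11.63 in wild-type libraries, a difference of -1.45 (adjusted p 1.84e-05 and 0.056). Cntnap2 fell as well, at 7.77 in null and 9.30 in wild-type libraries (adjusted p 7.17e-07 and 0.0344).

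Nearest to Gpx2 were Anpep, a membrane aminopeptidase, at an RMS of 0.126, Ly6e, a membrane-anchored lymphocyte antigen, at 0.127, and the kinase gene Pak6 at 0.128. Each was higher by library, by 1.17, 1.18 and 1.37, and none passed by set (limma adjusted p 0.0766, 0.186 and 0.0706). Gpx3 had more distant neighbours. Nipal4, a membrane transporter, was at an RMS of 0.487, Spp1, which encodes osteopontin, at 0.494, and Atp4a, a subunit of the gastric proton pump, at 0.52. Spp1 averaged 6.77 and 9.74 in null libraries 1 to 3 and 4 to 6, against 5.09 and 3.86 in the wild-type sets, so it had its highest level in null libraries 4 to 6, as Gpx3 did. Nearest to Gpx4 were Lmna, Apba3 and Atg3 (RMS 0.0748, 0.0752 and 0.0754), with differences of -0.34 to -0.52. Nearest to Gpx7 were Metrnl, St6galnac4 and Rnf113a1 (0.119, 0.135 and 0.141), and nearest to Gpx8 were Cstf2t, Gpbp1 and Vma21 (0.0504, 0.0665 and 0.0731).

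**Figure D4:**
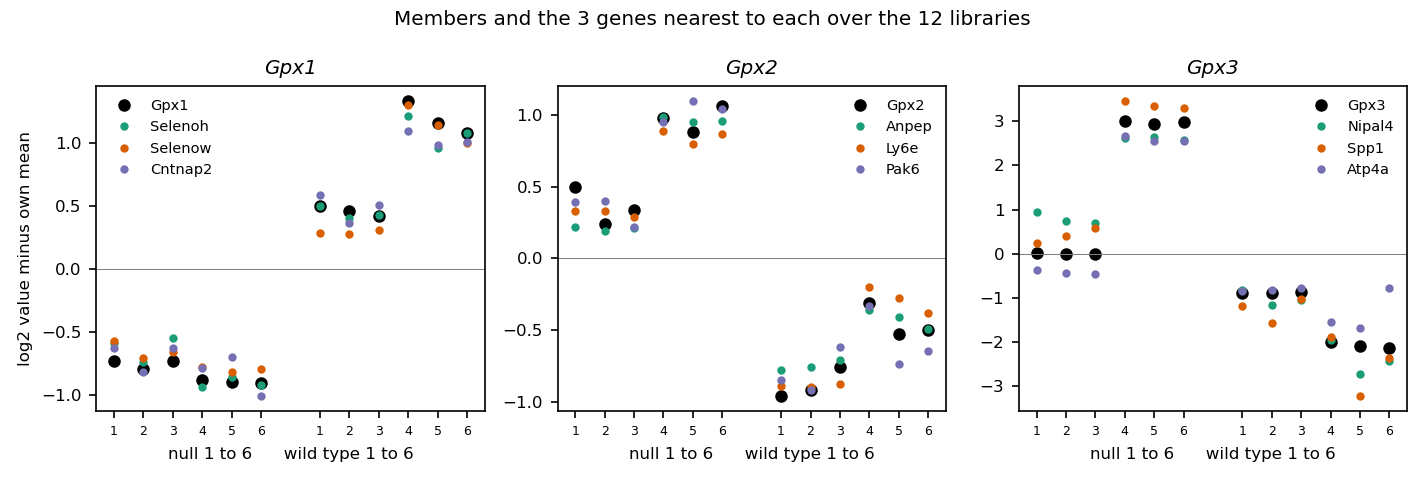
Log2 value minus the gene's own mean (y axis) for Gpx1, Gpx2 and Gpx3 (black) and the 3 genes nearest to each (colours), null libraries 1 to 6 left of wild-type libraries 1 to 6. Selenoh and Selenow lie close to Gpx1 in each set, while the neighbours of Gpx3 are high in null libraries 4 to 6 and spread more widely.

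The enzymes depend on a supply of reduced glutathione and, through glutathione reductase, of NADPH. Among 23 tested genes of glutathione supply and reduction, 7 were called higher and 11 lower by library, and by set 0 higher and 4 lower (limma; against 34.1% and 31.8%, and 2.15% and 1.93%, of all tested genes). Gss, the second enzyme of glutathione synthesis, fell to 9.10 in null, against 10.76 in wild-type libraries, a difference of -1.66 (adjusted p 2e-08 by library and 0.017 by set). Slc1a4, a neutral amino acid transporter, fell by 1.76 (adjusted p 0.0203 by set) and Hagh, which releases glutathione in the glyoxalase route, fell by 1.09 (adjusted p 0.0375). The remaining call by set was Chac1, at -2.35 (limma adjusted p 0.029), which degrades glutathione and is counted again in the ferroptosis list. Slc3a2, the heavy chain of the cystine transporter, was at -0.87 (adjusted p 6.65e-07 by library, 0.0717 by set). The list's median was -0.16, beside 0.05 over all tested genes, and 0.16 with libraries scaled to equal totals, where the median of all tested genes was 0.37. Among 19 genes of NADPH supply, 2 were called higher and 11 lower by library and 0 and 1 by set. Their median was -0.30, and 0.02 with equal totals, again beside 0.05 and 0.37 over all tested genes. By set, 1 gene was called. It was Me2, a mitochondrial malic enzyme, which fell by 1.22 (limma adjusted p 0.0301 by set).

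Gpx1 to Gpx4 need the machinery that places selenocysteine at TGA. Among 15 genes of selenoprotein synthesis, 2 were called higher and 11 lower by library and 0 and 2 by set. Of all tested genes, 34.1% were called higher and 31.8% lower by library, and 2.15% and 1.93% by set. The list's median was -0.60 and was below 0 under every scaling tried. The genes that fell are both general translation genes: Sars, the seryl-tRNA synthetase that charges the selenocysteine tRNA among others, at -1.22 (limma adjusted p 0.0414 by set), and Rpl30, a ribosomal protein that binds selenocysteine insertion elements and whose reads may be shared with processed pseudogenes, at -1.83 (adjusted p 0.038). Scly, which recovers selenium from selenocysteine, was at -0.81 (adjusted p 0.0843 by set), and Secisbp2l, a paralog of the insertion-element binding protein, was at 1.16 (adjusted p 0.0666). Among the 18 tested selenoproteins outside the family, 1 was called higher and 10 lower by library and 0 and 1 by set, with a median of -0.35, also below 0 under every scaling tried. Selenop, the secreted selenium carrier, averaged 13.10 in null and 12.12 in wild-type libraries, a difference of 0.98 (limma adjusted p 5.23e-09 and 0.0611). Msrb1, a methionine sulfoxide reductase, was at -1.02 (adjusted p 1.1e-05 and 0.0679). Of the receptors for Selenop, Lrp1 was at 0.86 and Lrp8 at 0.95, both called by library and neither by set (adjusted p 0.0859 and 0.172). Lrp2 did not pass the filter. It averaged 7.53 and 3.77 in null libraries 1 to 3 and 4 to 6, against 2.22 and 2.81 in the wild-type sets, so it was high in null libraries 1 to 3 alone.

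Gpx7 and Gpx8 work beside the oxidative folding enzymes of the ER. A list of 17 folding genes was taken, which also holds the sulfhydryl oxidases Qsox1 and Qsox2, not ER residents. Of these 17 genes, 2 were called higher and 10 lower by library and 1 and 0 by set. Their median was -0.43. The shares over all tested genes were 34.1% higher and 31.8% lower by library, and 2.15% and 1.93% by set. Qsox1, a sulfhydryl oxidase that makes disulfides and releases hydrogen peroxide, rose by 5.13 (SE 0.33 by library, 0.52 by set, limma adjusted p 4.5e-08 and 0.00926), with 15.48 in null and 10.35 in wild-type libraries. Qsox1 averaged 14.71 and 16.25 in the null sets, against 10.65 and 10.04 in the wild-type sets. Gpx3 and 5 of the 11 seminal vesicle markers had that order of sets, and the other 6 did not. Of the 10 tested seminal vesicle markers, 9 were called higher and 1 lower by library. Of the 9, Svs3a, Svs3b, Svs6, Pate4, Spinkl and Sva averaged 2.36 to 3.71 in wild-type libraries. These are below the 4 of the filter, which null libraries alone can meet. The counts are thus not comparable with the shares over all tested genes. The part of that tissue in the Qsox1 values was not tested. Dnajc10, an ER reductase, was at -1.23 (adjusted p 1.93e-07 and 0.123), while Qsox2 was at -0.63 and Txndc11 at -0.42.

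Other peroxide-removing enzymes were called in both directions. Of 16, 3 were called higher and 7 lower by library and 1 and 0 by set. The shares over all tested genes were 34.1% higher and 31.8% lower by library, and 2.15% and 1.93% by set. The list's median was -0.21, beside 0.05 over all tested genes. With equal totals it was 0.10, beside 0.37. Cat, the peroxisomal catalase, rose by 0.95 (limma adjusted p 1.78e-08 and 0.0454), at 10.36 in null and 9.41 in wild-type libraries. Prdx6, a peroxiredoxin that also reduces phospholipid hydroperoxides, averaged 14.72 in null and 17.60 in wild-type libraries, a difference of -2.88 (adjusted p 3.52e-07 and 0.0672). Srxn1, which repairs overoxidized peroxiredoxins, was at 0.69 and Sesn1 at 0.57, neither past the test by set.

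Among 29 tested genes of lipid peroxidation and ferroptosis, the process Gpx4 is known to oppose, 17 were called higher and 8 lower by library. By set the counts were 0 and 2. The shares over all tested genes were 34.1% higher and 31.8% lower by library, and 2.15% and 1.93% by set. The list's median was 0.40, beside 0.05 over all tested genes, and was above 0 under every scaling tried. With equal totals it was 0.72, beside 0.37, and with the length trend removed 0.21, beside 0.01. The list mixes genes that promote and genes that oppose the process, so its median gives no direction for it. Acsl3, an acyl-CoA synthetase for monounsaturated fatty acids, fell by 1.52 (limma adjusted p 0.0257 by set) and Chac1, which degrades glutathione, fell by 2.35 (adjusted p 0.029). Mboat2, a phospholipid acyltransferase, was at 1.24 and Slc40a1, the iron exporter, at 0.79 (adjusted p 0.0659 and 0.0944 by set). Of 33 tested genes of the NRF2 pathway, the transcription factor route that induces many antioxidant genes, 13 were called higher and 8 lower by library. By set the counts were 2 and 1, against the same shares over all tested genes. The median was -0.01, beside 0.05 over all tested genes. With equal totals it was 0.30, beside 0.37. Mgst1, a microsomal glutathione transferase with peroxidase activity, rose by 1.77 (limma adjusted p 2.18e-10 and 0.0109), at 10.23 in null and 8.46 in wild-type libraries. Sqstm1 was at -0.86 and Osgin1 at -0.87, both called by library and neither by set (adjusted p 0.0873 and 0.0601).

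**Figure D5:**
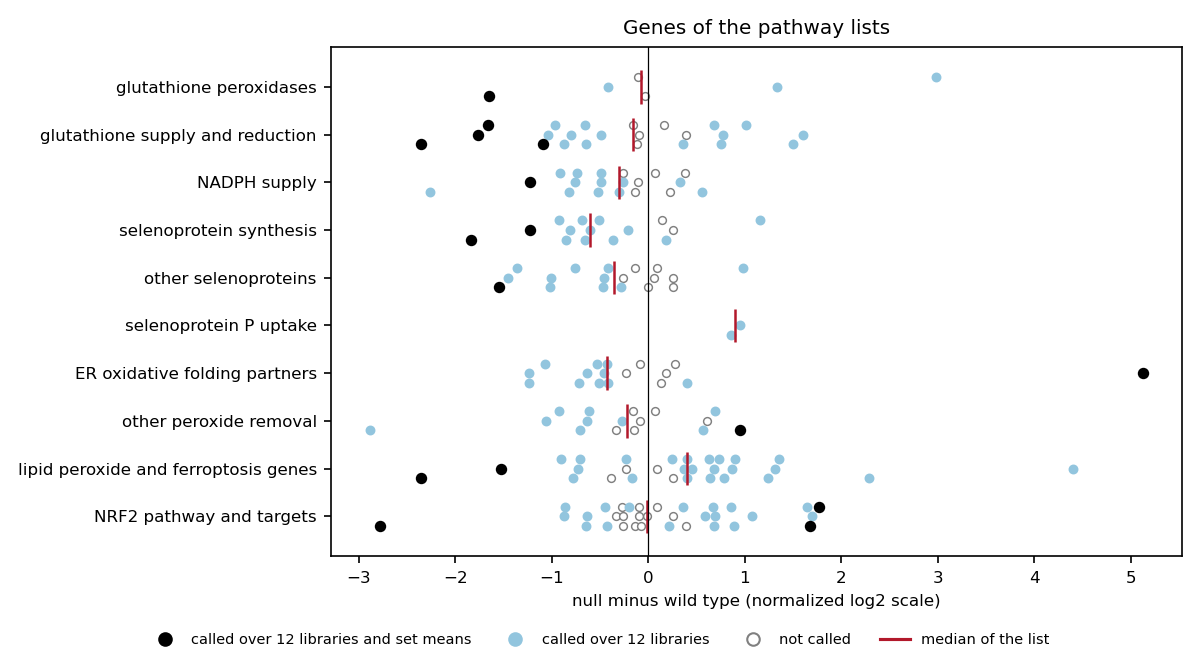
Null minus wild type on the normalized log2 scale (x axis) for every tested gene of the family and of 9 pathway lists (rows), with the median of each list as a red line. Black points passed limma by library and by set, blue points by library alone, and open points neither; Qsox1 at 5.13 and Gpx3 at 2.98 lie farthest right in their rows.

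Promoters of the members were searched in RefSeq windows of 300 bases on GRCm38.p6 (250 before and 50 after the start), 11 windows for all 8 members, on both strands. The antioxidant response element, searched as TGACNNNGC, was in none of them and in 12.4% of the 32851 windows of all genes. The androgen response element, searched as AGAACA and TGTTCT with 3 bases between them, was in none and in 0.00913% of all windows, and the TATA box TATAAA was in none and in 13.6%. TGTTCT, the core of the androgen response element, was in the windows of Gpx3 (133 bases before the start) and Gpx6 (39 bases after it), and in 19% of all windows. A match is a description of these letters alone and overlaps any longer motif that holds it.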

How the data were processed

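Poly-A RNA libraries of paraquat-treated prostate were sequenced on a HiSeq2000, per the labels' protocols. Per the submitters' processing notes, DESeq, Cufflinks, TopHat and CASAVA 1.8.2 were used, and the builds GRCm38.p2 and mm9, with no roles stated. The sources used here do not state read layout, strand or the handling of multiply mapped reads. The authors deposited normalized log2 values, 1 per gene and library, from -0.28 to 21.24. Of the 39179 gene IDs, 37693 (96.2%) matched the GENCODE annotation of GRCm38.

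Genes at or above 4 in at least 6 libraries (16197) were tested with limma 3.58.1 (trend, two-sided, R 4.3.3) and Benjamini-Hochberg adjustment over all of them, at an adjusted p of 0.05. The first fit used the 12 libraries and the second the means of libraries 1 to 3 and 4 to 6 of each genotype, sets found from the data. SEs are limma's moderated ones. High values fell within 0.1 of whole reads after rescaling, which gave the depths, and low values did not, so no count test was run. The fits were tested on simulated data with independent noise and no differences between sets. That simulation cannot show how the fit by library behaves with sets as different as these. Sequence comparisons used Biopython 1.88 on GENCODE transcripts.

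Named genes are the 8 members, the 3 nearest tested genes of each member that passed the filter, and up to 4 genes with the lowest p per pathway list. Markers are named only where they move with a member, as Crisp1 does with Gpx5 and Svs4 with Gpx3, or where they carry a list's sum, go against it or are undetected, chosen after their values were seen. The members, lists, sets and tests were chosen with earlier results of these data known. Alternatives were other scalings, filters, weights, removal of a length trend, and leaving out libraries and sets. A few items are not reported here.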

Additional observations from a re-analysis of the deposited data

Results flagged for a closer look

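Gpx7 had 1 null library apart from the others. Null library 2 was at 5.32 on the normalized log2 scale, while the other 5 null libraries lay between 5.65 and 5.79. The gap to its nearest neighbour was 0.705 of the range of the group, past the critical value of Dixon's test for 6 libraries. Over the 16 groups examined (8 members in null and wild-type libraries), chance flags about 1 in 20. Without this library the difference of Gpx7, null minus wild type, was 0.04 in place of -0.03, and neither passed the test.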

How the results depend on the processing

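Gpx1, Gpx2 and Gpx3 kept their direction under every alternative, and Gpx1 its call. Of all results and settings, 395 were unchanged by the criteria used, 26 moved, 13 reversed, 8 lost and 1 gained a call. Those criteria were loose for counts of calls. The ER folding list had 12 calls as reported and 8 without wild-type libraries 4 to 6, which was counted as unchanged. Many settings left out 1 library of a set of 3 closely similar ones, where little could change. The 395 is therefore no measure of robustness. A result that reversed and also gained a call was counted only as reversed. Over set means, Gpx2 (1.33, adjusted p 0.0819), Gpx3 (2.98, 0.12) and Gpx4 (-0.42, 0.251) were not called. Set means with the length trend removed, added after seeing the data, gave Gpx1 -1.29 (still called, adjusted p 0.0424), Gpx2 1.32, Gpx3 3.23 and Gpx4 -0.05 (none called), and Gpx7 at 0.29 and Gpx8 at 0.26. Gpx4 lost its call with library totals (-0.11) and with the length trend removed (-0.05). Gpx7 reversed with library totals (0.28), upper-quartile centring (0.05), the length trend removed (0.29), without null libraries 1 to 3 (0.06) and without wild-type libraries 4 to 6 (0.04). Gpx8 reversed with library totals (0.20) and the length trend removed (0.26), and was called in both (limma adjusted p 0.0204 and 0.0342). Gpx8 also reversed without wild-type libraries 4 to 6 (0.02), and was called at -0.24 without wild-type libraries 1 to 3. The causes were not tested.

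Leaving out each library gave Gpx1 -1.73 to -1.55, Gpx2 1.25 to 1.41, Gpx3 2.68 to 3.28, Gpx4 -0.46 to -0.37, Gpx7 -0.12 to 0.04 and Gpx8 -0.14 to -0.07, with 4 members called each time. Leaving out a set moved Gpx3 most, to 1.49 without null libraries 4 to 6 and 4.46 without null libraries 1 to 3. Quantile normalization gave Gpx3 4.30 (adjusted p 0.00189).

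Counts of calls fell by set and, in brackets, with the length trend removed as well: members 1 (1), glutathione supply and reduction 4 (5), NADPH supply 1 (3), selenoprotein synthesis 2 (2), other selenoproteins 1 (1), selenoprotein P uptake 0 (0), ER oxidative folding partners 1 (1), other peroxide removal 1 (1), lipid peroxide and ferroptosis genes 2 (2) and NRF2 pathway 3 (4). Selenoprotein P uptake had 1 call with the stricter filter and without null libraries 1 to 3, and 0 with the length trend removed. The ferroptosis list had 16 without wild-type libraries 4 to 6. With its longest coding transcript, Gpx2 held 0.279% of the family level in null and 0.373% in wild-type libraries. Library totals moved the median difference of all genes to 0.37 and the calls to 8611 higher and 2608 lower in null, against 0.05 and 5518 higher and 5152 lower as deposited. Upper-quartile centring moved it to 0.13.

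No paired analysis was possible because replicate numbers were given in order and only name libraries. With 2 set means per genotype, a missed threshold does not show that genotypes are alike. Values below about 4 lie near the floor of the scale, where Gpx5 and Gpx6 cannot be resolved, and their depth in reads could not be recovered.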
